A study of Cordyceps militaris with 6 samples.

Results

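The 1316 splice junctions described here carry the class words ES, AFS or ALS in the authors' junction tables of mycelium of the medicinal fungus Cordyceps militaris, strain YCC. They were taken from 20186 junction entries, where an entry is a pair of joined ends assigned to a gene, by these class words alone. The tables do not spell the words out. Of the 1316, 183 were ES, 785 were AFS and 348 were ALS, and they lay in 942 of the 6436 genes with a listed junction. The classes are called exon skipping and alternative end junctions here. Their positions were compared with the authors' own gene-structure table, which gives a start and an end for 3695 genes. All 139 ES junctions in those genes lay between the start and the end. All 652 AFS junctions reached before the start of the gene and all 256 ALS junctions reached past its end. For comparison, all 5593 junctions classed Known in those genes lay inside them. Lying inside a gene thus does not tell ES from Known junctions, and reaching outside it shows the side only. These positions therefore cannot show whether an exon is skipped or an end is an alternative one.

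The samples are mycelia from repeated subculture of this strain at passages 1, 2, 3, 4, 5 and 6, with 1 library per passage. Each culture of the unmodified strain was grown in liquid medium in the dark for 72 h before poly(A) RNA was taken from the mycelium, and the passage number is the only difference between the groups that the labels give. With 1 library per passage no difference between passages has a replicate check, so no test was made. Every interval below is a 95% interval of counting error only. The intervals treat each read as independent. Amplified reads are not independent molecules, so the intervals can be too narrow even for counting error. In such bulk RNA, fewer cells of a kind and less RNA per cell cannot be told apart.

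When a gene is transcribed, the spliceosome removes introns from the RNA and joins the exons, and a read that crosses a join shows which ends were used. An exon can be left out when its neighbours are joined directly, and a transcript can also start or end with an exon that lies outside the annotated gene. Filamentous fungi mostly have short introns, and skipping of whole exons is generally rarer in them than retention of introns.

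Reads on listed junctions numbered 5694387 in passage 1, the shallowest library, and 7626693 to 9563636 in passages 2 to 6. The estimated gene counts summed to 9740171 in passage 1 and 10930180 to 13813999 in the others, so passage 1 had 58.5 junction reads per 100 gene counts and the other libraries 68.1 to 70.2. The smallest junction count listed was 5 in every library, so a junction that is not listed can hold up to 4 reads. Of the housekeeping products, actin (CCM_03787) lay between 1287 and 1742 FPKM (fragments per kilobase, scaled to the size of the library). GAPDH (CCM_04549) lay between 7488 and 12263 FPKM and a tubulin beta chain (CCM_04055) between 438.7 and 871.5. Not all such products were high. A second product named actin (CCM_05371) was at 0.58 to 2.13, and products named tubulin at 0.09 to 0.49 (CCM_04309) and 0.13 to 0.92 (CCM_06451). The conidiation regulator AbaA (CCM_05444) was at 231.7 FPKM in passage 1 and 31.1 to 94.0 FPKM in passages 2 to 6, a second product named AbaA (CCM_06097) at 2.83 to 4.88, and the mating-type protein MAT 1-1-1 (CCM_06523) at 2.32 to 6.66. Other products with mating-type in their names ranged from MAT 1-1-2 (CCM_09679) at 0 to 0.2 to a switching protein swi10 (CCM_03443) at 33.4 to 146.2. No product was named BrlA or WetA. The products named hydrophobin, coat proteins of aerial structures, did not share one order. CCM_06862 was at 727.0 FPKM in passage 1 and 63.0 to 658.3 in the others, CCM_06854 at 214.2 and 179.9 to 463.6, and CCM_07964 at 66.2 and 105.4 to 269.6. CCM_03537 was listed at 0 throughout, and the 3 others lay between 5.12 and 42.7. The part of any such cell types in the junction values below was not tested.

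The 3 classes together took a small and nearly even share of the junction reads, and the ALS class was the one whose share differed most between passage 1 and the rest. ES junctions held 1.08% of junction reads in passage 1 (1.08 to 1.09) and 0.976%, 0.977%, 0.999%, 1.01% and 0.990% in passages 2 to 6. AFS junctions, the most read of the 3 classes, held 3.63% in passage 1 and 3.94%, 3.83%, 3.92%, 3.90% and 3.83% in passages 2 to 6. ALS junctions held 0.372% in passage 1 (0.367 to 0.377) and 0.440%, 0.530%, 0.525%, 0.482% and 0.494% in passages 2 to 6. Passage 1 was thus the highest of the 6 libraries for ES and the lowest for AFS and ALS.

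**Figure D1:**
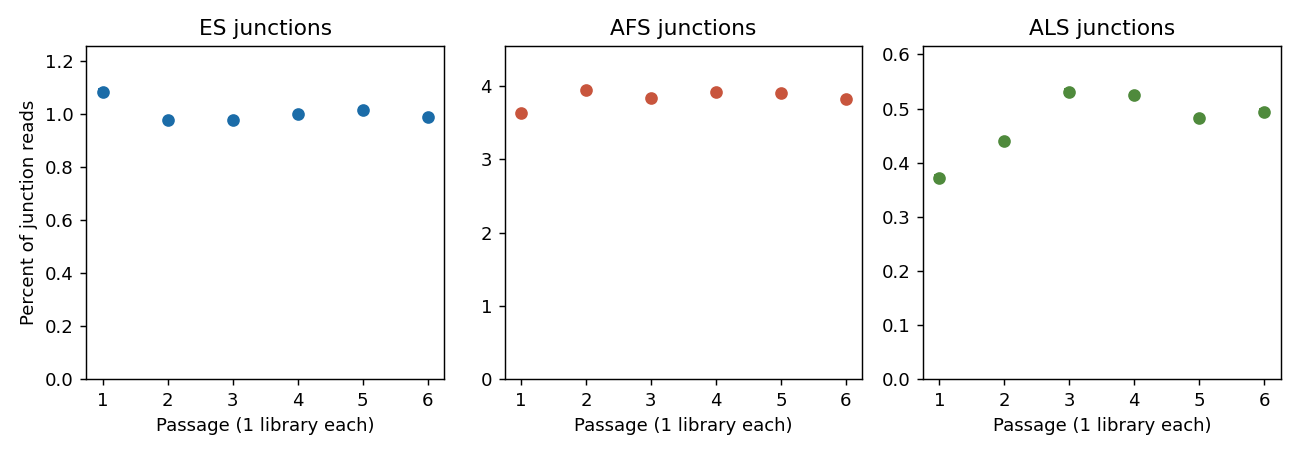
Share of all junction reads (percent, vertical axis) held by ES, AFS and ALS junctions in the library of each passage (horizontal axis). Points are single libraries, and the 95% intervals of counting error are smaller than most points. ES stands highest in passage 1 at 1.08% and ALS lowest in passage 1 at 0.372%.

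Relative to passage 1, which is shared by all 5 comparisons, the ALS share was 1.18-fold in passage 2 (1.16 to 1.20), 1.43-fold in passage 3 (1.40 to 1.45), 1.41-fold in passage 4, 1.30-fold in passage 5 and 1.33-fold in passage 6. The AFS share was 1.05-fold to 1.08-fold that of passage 1. The ES share was 0.900-fold to 0.936-fold. This lower ES share turned round when ES reads were divided by the summed gene counts in place of junction reads, where it was 1.06-fold to 1.11-fold that of passage 1. On the same scale ALS was 1.40-fold to 1.70-fold and AFS 1.23-fold to 1.30-fold. The lower depth and the fewer junction reads per gene count of the passage 1 library move with all of these ratios, and their part in them was not tested.

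Counted junction by junction, a larger share of the ALS junctions than of all junctions was at least 2-fold higher in each later passage than in passage 1. For each junction with a mean of at least 10 reads, its reads as a share of all junction reads of the library were compared with passage 1, and a junction not listed in a library was given 4 reads there. The mean is over all 6 libraries, so a junction unlisted in passage 1 can pass only through its reads in later passages. Of the 38 ALS junctions listed in 5 libraries, 27 were missing from passage 1 (71.1%, against 57.6% among all junctions). ALS junctions had a median of 69.5 reads in sum, against 802 for Known junctions. The shares of all junctions were not matched for read number, and the part of this filter in the differences was not tested. In passage 2, 110 of 694 ES, AFS and ALS junctions were at least 2-fold higher (15.9%), beside 11.2% of all junctions. There were 102 at least 2-fold lower (14.7%), beside 13.5% of all. In passage 3, 147 of 696 were higher (21.1%, beside 17.1% of all) and 118 lower (17.0%, beside 16.7%). In passage 4, 142 were higher (20.4%, beside 15.1% of all) and 107 lower (15.4%, beside 13.9%). In passage 5, 144 were higher (20.7%, beside 14.7% of all) and 119 lower (17.1%, beside 16.9%). In passage 6, 132 were higher (19.0%, beside 14.9% of all) and 111 lower (15.9%, beside 15.7%).

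The 3 classes divided differently. Among ALS junctions, 41 of 177 were at least 2-fold higher in passage 2 (23.2%), 59 of 174 in passage 3 (33.9%), 61 of 177 in passage 4 (34.5%), 53 of 175 in passage 5 (30.3%) and 50 of 175 in passage 6 (28.6%). Only 4.57% to 8.47% of them were at least 2-fold lower. The median ALS junction was 0.32, 0.58, 0.64, 0.48 and 0.54 higher on the log2 scale in passages 2 to 6, where the median of all junctions lay between -0.02 and 0.03. Among AFS junctions 13.1%, 16.4%, 15.2%, 16.3% and 14.9% were at least 2-fold higher, beside the 11.2% to 17.1% of all junctions given above, and 16.9%, 21.1%, 19.5%, 20.8% and 20.2% were lower, more than among all junctions in each passage. ES junctions, of which 71 to 73 could be compared, were higher in 15.1% to 24.7% and lower in 13.9% to 19.2%.

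Dividing each junction by the estimated count of its own gene takes out changes of the whole gene. On this scale 69, 92, 89, 78 and 89 of the 677 to 680 junctions were at least 2-fold higher in passages 2 to 6, beside 3.8%, 5.58%, 5.61%, 4.83% and 5.91% of all junctions. There were 37, 76, 59, 53 and 65 at least 2-fold lower, beside 2.61%, 5.27%, 4.93%, 3.95% and 5.31%. The ALS class was again the highest, with 15.8%, 26.5%, 25.3%, 15.2% and 20.4% of its junctions at least 2-fold higher and a median 0.22 to 0.42 higher on the log2 scale. Of AFS junctions 9.11%, 10.3%, 9.28%, 9.93% and 10.6% were higher and 5.24%, 13.5%, 10.6%, 9.03% and 10.6% lower, above the share of all junctions in both directions. AFS and ALS junctions had fewer reads, with a median of 102 and 69.5 in sum against 802 for Known junctions. Low counts vary more, the share of all junctions was not matched for read number, and the part of this was not tested. The AFS median was 0.14 to 0.28 lower on the log2 scale, where the median of all junctions was 0.03 to 0.08 lower. Of the 71 to 73 ES junctions 4.11%, 4.17%, 8.33%, 12.3% and 12.7% were higher. Those at least 2-fold lower were 4.11%, 6.94%, 2.78%, 6.85% and 8.45%. The ES median was 0.09 to 0.23 lower, so the ES class did not stand higher junction by junction per count of the own gene. This scale is uncertain for some genes: 125 of the 1316 junctions, among them 53 ALS and 60 AFS junctions, had more reads in the 6 libraries than the estimated count of their whole gene.

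**Figure D2:**
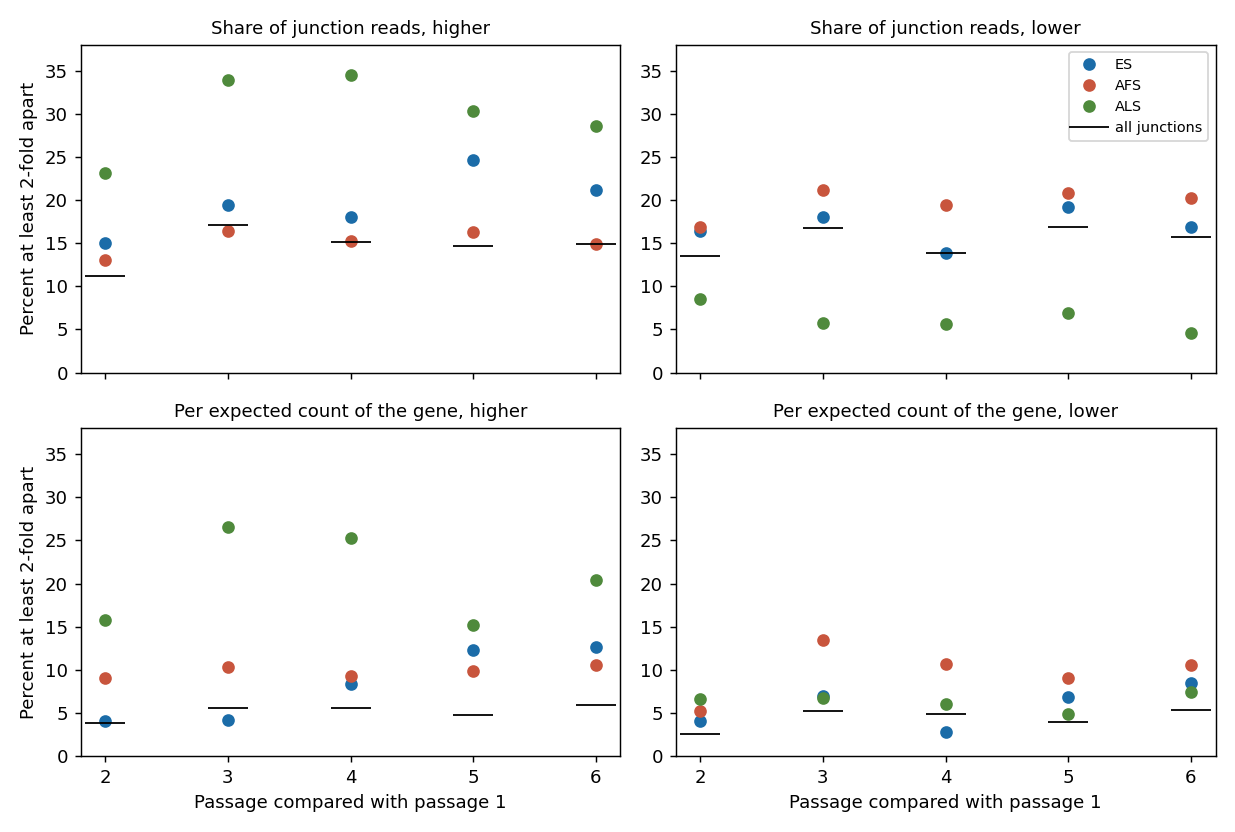
Percent of junctions at least 2-fold higher (left) or lower (right) in each later passage than in passage 1, as a share of junction reads (top) and per estimated count of the gene (bottom). Coloured points are the ES, AFS and ALS junctions and black bars are all junctions; the ALS points lie between 23.2% and 34.5% at the top left, above the bars at 11.2% to 17.1%.

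The spans of the classes differed. The median distance between the joined ends was 61 bases for Known junctions, 68 for ALS, 112 for AFS and 312 for ES. Of the ALS junctions 69.0% spanned at most 100 bases, as did 45.7% of AFS, 89.2% of Known and 1.09% of ES junctions. An ES junction spans an exon and the introns on its sides, so longer spans follow from the class. Spans over 10 kb were found for 13 AFS and 16 ALS junctions, up to 492497 bases, and for no ES junction, and they held 0.195% of AFS reads and 0.584% of ALS reads.

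**Figure D3:**
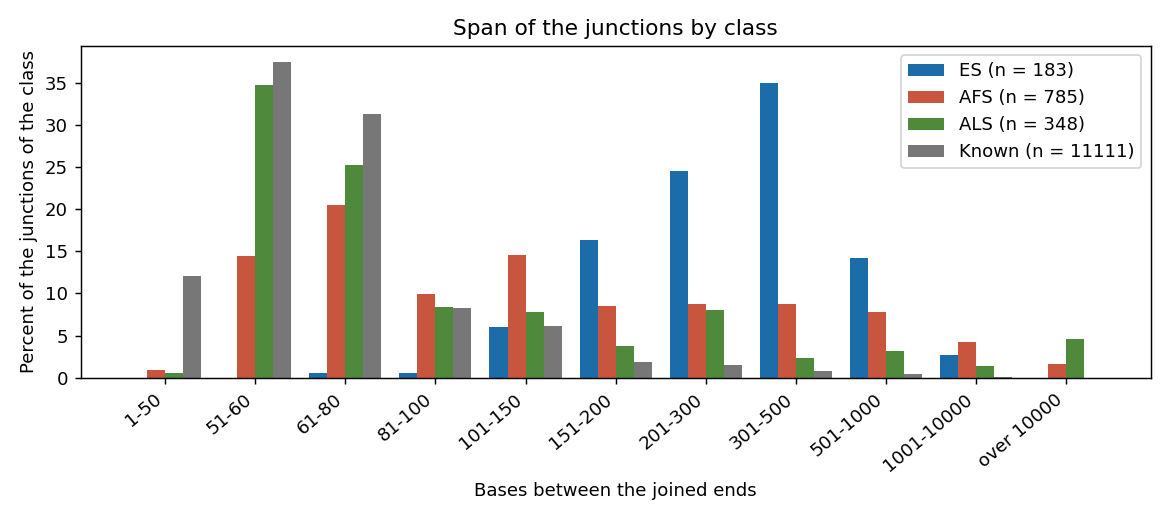
Distribution of the number of bases between the joined ends (horizontal axis, bins of unequal width) for ES, AFS, ALS and Known junctions, as percent of each class (bars). ES junctions are most frequent at 301 to 500 bases (35.0%), while Known junctions lie mostly at 100 bases or less (89.2%).

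Most reads of each class came from junctions found in every library. Of the ES junctions 63 were listed in all 6 libraries and 42 in 1 only. For AFS these numbers were 400 and 160, and for ALS 158 and 77. The junctions listed in all 6 held 99.3% of the ES reads, 98.8% of the AFS reads and 96.9% of the ALS reads. Of Known junctions 85.9% were listed in all 6 libraries, but Known junctions also had a median of 802 reads against 32 for ES, 102 for AFS and 69.5 for ALS. Among junctions with 100 or more but under 1000 reads in sum, 87.5% of ES, 88.2% of AFS, 84.5% of ALS and 96.6% of Known junctions were listed in all 6. Of the 103 ES, AFS and ALS junctions listed in 5 libraries, 60 were missing from passage 1, or 58.3%, which is close to the 57.6% among all junctions.

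ES junctions fell into 2 kinds by whether inclusion reads were listed on both sides of the skipped stretch. For 141 of the 183, reads that join into the skipped stretch from its left and its right end were both listed. These 141 held 7.92% of the ES reads, with a median of 20 reads. For the other 42, at least 1 of these inclusion junctions was listed in no library. The 42 held 458727 reads, 92.1% of the class, with a median of 1788 reads, and 38 of them were listed in all 6 libraries. For 26 of the 42 no inclusion junction was listed on either side. Even if each missing inclusion junction held 4 reads in every library, 36 of the 42 would have a skipping share of at least 90%.

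The skipping share is the number of skipping reads divided by skipping reads plus the mean of the reads on the inclusion junctions. Among the 141 it had a median of 0.343%. It was under 1% for 97 junctions, 1% to 5% for 27, 5% to 50% for 9, and at least 50% for 8. No junction lay between 32.5% and 66.3%.

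**Figure D4:**
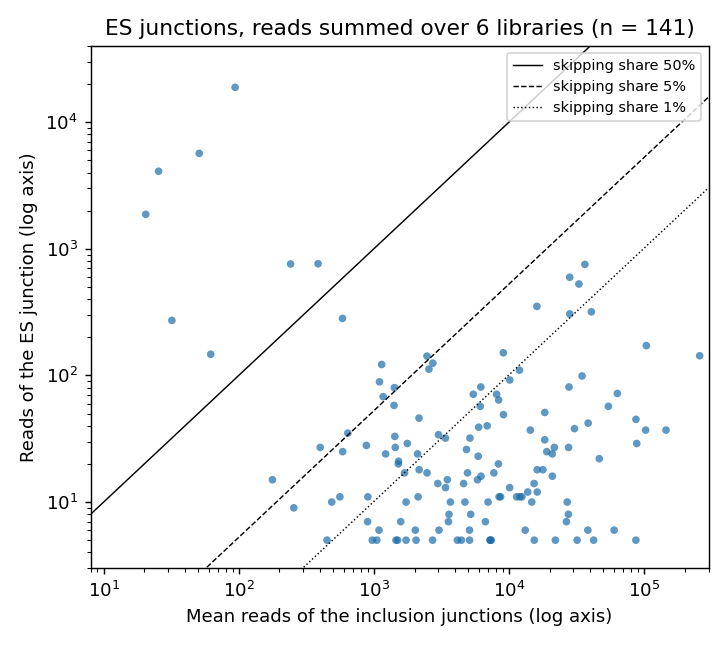
Reads of each of the 141 ES junctions with inclusion junctions on both sides (vertical axis) against the mean reads of its inclusion junctions (horizontal axis), both summed over 6 libraries on log axes. Lines mark skipping shares of 50%, 5% and 1%. The 8 points above the 50% line stand apart from the 133 others, most of which lie under the 1% line.

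The skipped exon could be measured for 120 junctions that leave out a single exon between Known junctions, and 8 left out more. The single exons had a median length of 102.5 bases, against 233 bases for 5439 exons between consecutive Known junctions. Of the 120, 37 had a length that is a multiple of 3 (30.8%), which keeps the reading frame, beside 34.1% of the 5439.

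The 12 most read ES junctions held 81.0% of the reads of the class and were all listed in every library. Several belong to the translation machinery. The translationally-controlled tumor protein (CCM_01619), an abundant conserved protein tied to growth, had 5854 reads in passage 1 and 15209, 11402, 13020, 13106 and 11452 in passages 2 to 6. Its inclusion junctions had 17 reads on the right side in the 6 libraries and none listed on the left. The ribosomal stalk protein P2 (CCM_07272) had 2811 reads in passage 1 and 7183 to 9801 in the others, and the ribosomal protein S24 (CCM_09648) had 3872 in passage 1 and 6643 to 8851 in the others. As a share of junction reads the P2 junction was 1.66-fold to 2.19-fold that of passage 1, and the S24 junction 1.27-fold to 1.40-fold. Both are among the genes whose estimated count lies under the reads of this 1 junction, with 25 for P2 and 625 for S24 in passage 1, so no ratio per gene count is given for them.

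The other leading ES junctions lay in genes of several roles, and as a share of junction reads some were higher and some lower in all 5 later passages than in passage 1. Multiprotein bridging factor 1 (CCM_01086), a transcriptional coactivator, had 4033 reads in passage 1 and 7075 to 9860 in the others, 1.08-fold to 1.502-fold as a share of junction reads. The mitochondrial porin (CCM_00510), the channel of the outer membrane, had 5878 in passage 1 and 6279 to 9347 in the others, but its share of junction reads was lower in each, at 0.729-fold to 0.947-fold. The autophagy protein LC3 (CCM_07484) had 1904 and 5139 to 6147, and its share was 1.71-fold to 2.02-fold. Glutamine synthetase (CCM_08119), which makes glutamine from glutamate and ammonia, was also lower in each, with 5268 reads in passage 1 and 3987, 3017, 3966, 3602 and 3214 in passages 2 to 6. Its ratio to passage 1 was 0.375 to 0.473 as a share of junction reads. A peroxidase (CCM_08201) had 4035 reads in passage 1 and 2179 to 4082 in the others, 0.403-fold to 0.602-fold as a share of junction reads. The cortical patch protein of the SUR7/PalI family (CCM_03426) had 3010 and 1836 to 2558, 0.422-fold to 0.534-fold. Phosphoenolpyruvate carboxykinase (CCM_04470), the entry enzyme of gluconeogenesis, had its lowest values in passage 6 with 3019 reads and passage 2 with 3460, and its most reads in passage 5 with 6722, and its share of junction reads was 0.411-fold to 0.998-fold that of passage 1. Formate dehydrogenase (CCM_03045) had 7438 reads in passage 6 and 2366 to 4731 in the others, with a share of 1.93-fold in passage 6 and 0.900-fold at the lowest. Per count of the gene it was 0.749-fold to 0.863-fold, and 0.819-fold in passage 6. On that scale the SUR7/PalI protein was 0.817-fold to 0.980-fold, porin 0.830-fold to 0.963-fold and phosphoenolpyruvate carboxykinase 0.738-fold to 0.880-fold. Glutamine synthetase was 0.462-fold to 0.647-fold, though its gene count of 4534 in passage 1 lay under its 5268 reads. Bridging factor 1, LC3 and the peroxidase had gene counts under their junction reads, so no such ratio is given.

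Among ES junctions with listed inclusion on both sides, the 8 highest skipping shares belonged to genes of very different roles. The E1 alpha subunit of pyruvate dehydrogenase (CCM_01079), which feeds pyruvate into the citric acid cycle, had 18842 skipping reads over a 102-base exon and a share of 99.5%. Histone H2A (CCM_02142) stood at 99.4%, SUB2 (CCM_03173) at 99.1% and the AAA ATPase Pontin (CCM_04585) at 98.9%. SUB2 is an RNA helicase of spliceosome assembly and mRNA export, and Pontin is a subunit of chromatin-remodelling complexes. The mRNA export factor Mex67 (CCM_06267) stood at 89.5%, an elongation factor Tu GTP-binding domain protein (CCM_05085) at 75.8%, polarity defective-2 (CCM_05620) at 70.3% and a urea transporter (CCM_06529) at 66.3%. Sphingosine kinase (CCM_00739) was the next highest, at 32.5%.

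How far these shares moved between libraries could be read for 20 junctions that were listed in all 6 libraries with at least 100 reads of skipping plus inclusion in each. For 8 of the 20 the counting intervals of the highest and the lowest library did not overlap, a comparison of extremes picked from 6 values. Las1-like protein (CCM_05589), a factor of ribosomal RNA processing, had shares of 12.7%, 12.7%, 14.2%, 9.98%, 7.56% and 5.90% in passages 1 to 6. The lowest library was passage 6 (3.96 to 8.69), where the inclusion reads were 516 and 218 against 64 to 278 in the others, while skipping reads stayed at 13 to 23. The urea transporter had 72.6%, 65.7%, 58.2%, 61.9%, 64.1% and 71.7%, with passage 3 lowest (50.3 to 65.4) and passages 1 and 6 highest.

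Summed over the 133 junctions with a share under 50%, skipping reads made up 0.193% of skipping plus inclusion reads in passage 1 (0.176 to 0.212) and 0.326%, 0.245%, 0.341%, 0.364% and 0.318% in passages 2 to 6. The number of the 133 listed in a library was 35 in passage 1 and 67, 56, 82, 78 and 63 in the others, so passage 1 and passage 3, the shallowest libraries, stood lowest on both counts. Among the 17 of these junctions that were listed in all 6 libraries, the median share was 1.68%, 1.84%, 1.74%, 1.90%, 1.68% and 2.47% in passages 1 to 6, so passage 1 did not stand apart there. The part of depth and of the listing floor in this order was not tested.

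The WD repeat protein CCM_04398 had shares of 0.0679% in passage 1 and 0.257% in passage 6, from 8 and 58 skipping reads. The Hsp90 co-chaperone Sba1 (CCM_08543) had 1.57%, 1.48% and 1.34% in passages 1 to 3 and 2.90%, 2.05% and 2.47% in passages 4 to 6, and its 3 later libraries were all above its 3 earlier ones. An RNP domain protein (CCM_01225) was lowest in passage 1 at 1.32% and highest in passage 6 at 3.04%. The MFS alpha-glucoside transporter CCM_06039 was highest in passage 1 at 1.68% and lowest in passage 5 at 0.646%. Pyruvate dehydrogenase E1 alpha stood at 99.5% to 99.8% in passages 1 to 5 and 98.5% in passage 6, the only library in which its right inclusion junction was listed, with 53 reads. SUB2 lay between 98.3% and 99.7%, and here too some inclusion junctions were unlisted, each of which can hold up to 4 reads.

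**Figure D5:**
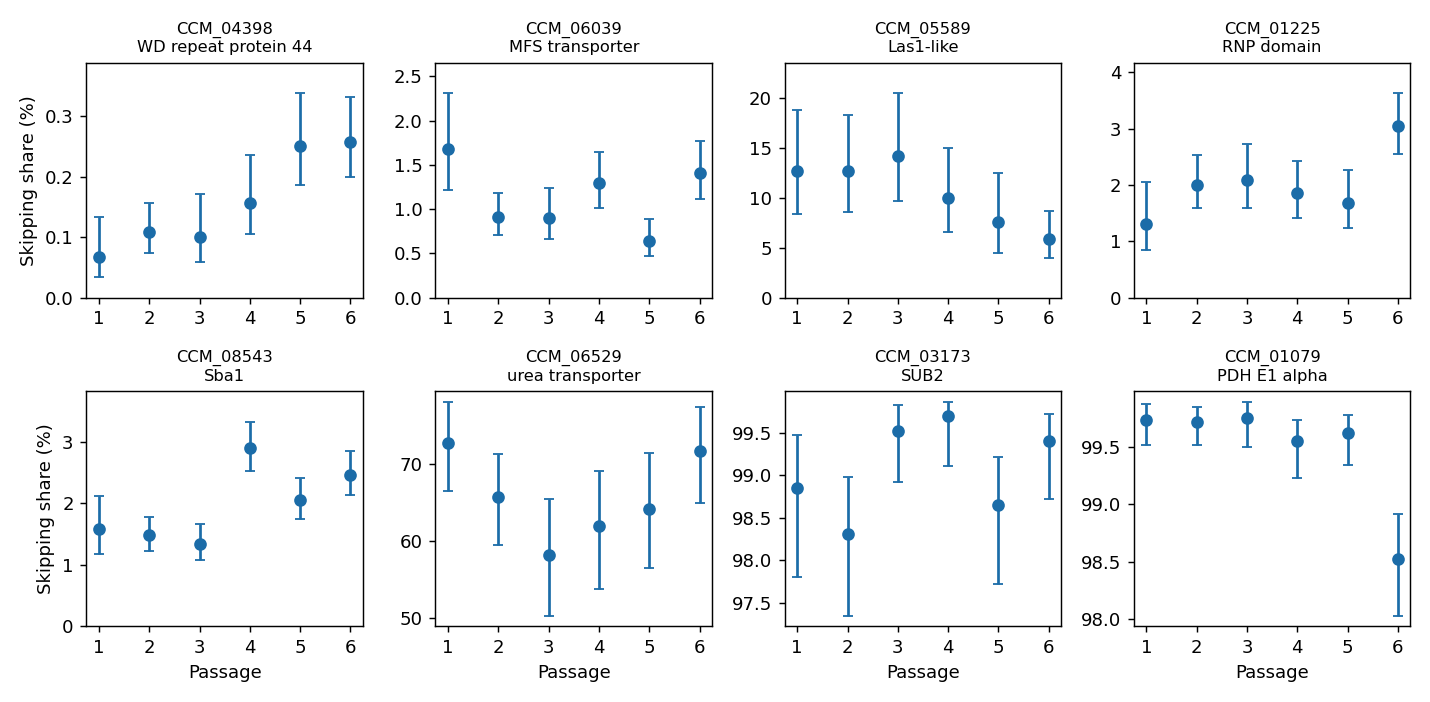
Skipping share (percent, vertical axes of different range, not all starting at 0) in the library of each passage for the 8 ES junctions whose highest and lowest libraries had intervals that did not overlap. Points are single libraries with 95% Wilson intervals of counting error. Las1-like protein runs from 14.2% in passage 3 to 5.90% in passage 6 and Sba1 from 1.34% in passage 3 to 2.90% in passage 4.

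AFS junctions mark the 5′ side of genes. Of the 652 AFS junctions in genes of the authors' structure table, 450 lay wholly before the gene start and 202 crossed it. Most gene spans of that table hold coding sequence only: after removal of Known introns, the length of 70.5% to 74.4% of genes with 1 to 4 such introns was a multiple of 3. The authors extended the 5′ ends of many genes with blocks of UTR, and 157 AFS junctions joined exactly the ends of 2 such blocks. These 157 held 34.7% of the AFS reads. Of all 785 AFS junctions, 46 ended at the same inner base as a Known junction, so that the 2 compete for that end. The AFS junction held a median of 0.405% of all reads listed at such an end, and at least 50% at 5 ends.

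The most read AFS junctions lay in genes of chaperones, glycolysis, ubiquitin and translation. HSP90 (CCM_07839), a chaperone of signalling proteins, had 13725 reads in passage 1 and 37421, 25236, 28889, 33853 and 27750 in passages 2 to 6. GAPDH (CCM_04549), an enzyme of glycolysis, had 8251 in passage 1 and 19607, 14991, 21193, 18298 and 25923 in the others. Elongation factor 1-alpha (CCM_00809), which brings tRNA to the ribosome, had 6461 in passage 1 and 13822, 16781, 20551, 15691 and 15748 in the others. All 3 were lowest in passage 1 also as a share of junction reads, at 1.24-fold to 1.65-fold for HSP90, 1.36-fold to 1.93-fold for GAPDH and 1.27-fold to 2.00-fold for elongation factor 1-alpha. Per count of the gene they parted: elongation factor 1-alpha stood at 1.69-fold to 2.53-fold and GAPDH at 1.09-fold to 1.48-fold of passage 1, but HSP90 at 0.600-fold to 0.857-fold. Ubiquitin (CCM_00487), with 11786 reads in passage 1 and 14144 to 21869 in the others, stayed within 0.896-fold to 1.10-fold as a share of junction reads.

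Beyond these, a nucleosome binding protein (CCM_02275) had 2511 AFS reads in passage 1 and 6671, 7186, 9610, 7757 and 11555 in passages 2 to 6. Its share of junction reads was 1.58-fold to 2.83-fold that of passage 1. The estimated count of its gene was only 115 in passage 1, so no ratio per gene count is given. A protein with the fungal CFEM domain (CCM_01862), a domain of secreted and cell-surface proteins, had 2497 in passage 1 and a highest value of 9722 in passage 3. Its gene count was 3305 in passage 1 and 12528 in passage 3. Per count of the gene the junction was 0.896-fold to 1.07-fold that of passage 1. The septin named cell division control protein 3 (CCM_03005) held 99.9% of the reads at an inner end shared with a Known junction. For the kinase dsk1 (CCM_07312), whose namesake in fission yeast phosphorylates splicing factors, the AFS junction held 97.0% when set against the Known junction alone, but 48.3% of the reads of all 4 junctions listed at that end. Multistep phosphorelay regulator 1 (CCM_05020), a phosphotransfer protein of 2-component signalling, was near an even split. Its AFS junction of 989 bases held 53.0% of all reads listed at the end, with 58.4%, 49.1%, 52.5%, 56.5%, 55.8% and 47.8% in passages 1 to 6, and a shorter AFS junction at the same end held 7.28%.

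ALS junctions mark the 3′ side. Of the 256 in genes of the structure table, 93 lay wholly past the gene end and 163 crossed it, and 35 joined the ends of 2 blocks of an extended 3′ UTR. Only 11 of the 348 shared their inner end with a Known junction, 3 of them with at least 50% of the reads. These 3 were the cell cycle control protein cwf14 (CCM_02713) with 99.9%, CCM_01715 with 97.8% and CCM_01110 with 92.2%.

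The hinge protein of the ubiquinol cytochrome c reductase (CCM_05103), a part of the respiratory chain, had the most ALS reads, with 2520 in passage 1 and 3722 to 4746 in the others. As a share of junction reads it stayed at 1.00-fold to 1.12-fold of passage 1. The largest difference among the 12 most read ALS junctions was that of a cyanovirin-N protein (CCM_07874), a family of sugar-binding lectins. It had 182 reads in passage 1 and 1122, 2925, 2489, 1984 and 1630 in passages 2 to 6, which is 3.67-fold, 12-fold, 8.59-fold, 7.30-fold and 5.50-fold as a share of junction reads and 1.22-fold to 1.81-fold per count of the gene. The difference was thus smaller once the count of the whole gene was divided out.

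Adenosine kinase (CCM_02716), which turns adenosine into AMP, had 265 reads in passage 1 and 806, 749, 1007, 797 and 703 in the others. Its ALS junction was 1.63-fold to 2.39-fold as a share of junction reads and 1.58-fold to 2.15-fold per count of the gene. The peptide chain release factor eRF1 (CCM_02720), which ends translation at stop codons, had 422 reads in passage 1 and 902 to 1036 in the others, and was 1.33-fold to 1.66-fold per count of the gene. Malate dehydrogenase (CCM_05784) was 0.805-fold to 1.25-fold as a share of junction reads but 1.35-fold to 1.76-fold per count of the gene. The ribosomal proteins L30-2 (CCM_01931) and L27 (CCM_00267) had 803 and 1121 reads in passage 1 and at least 2303 and 1994 in each later passage. As a share of junction reads L30-2 was 1.75-fold to 2.52-fold and L27 1.23-fold to 1.56-fold. Their gene counts of 537 and 706 in passage 1 lay under these reads, so no ratio per gene count is given. Blu7 (CCM_04508) was lower in the later passages, at 0.640-fold to 0.719-fold as a share of junction reads.

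Ribosomal and translation genes were the leading group by reads. By words in the product names, 58 of the 942 genes with an ES, AFS or ALS junction fell in this group (6.16%), which makes up 3.74% of all genes with a listed junction. They held 26.2% of the reads, and 32.1% of the ES reads. The group took 6.88% of the estimated gene counts of all genes with a junction. That share is uncertain, because some leading genes had counts far under their junction reads. In passage 1, P2 had a count of 25 beside 2811 ES reads, and the ribosomal protein S26E (CCM_00488) 13 beside 3968 AFS reads. The genes of the group held 21.7% of the reads of these classes in passage 1 and between 25.4% and 27.9% in passages 2 to 6. The genes with such junctions were well expressed: the median of the mean FPKM was 78.5 for ES genes, 50.8 for AFS genes and 34.8 for ALS genes, against 30.04 for all genes with a junction. Proteins that act on RNA made up 2.76% of the genes against 1.46% of all. Genes of transport across membranes made up 4.99% against 7.88%, and metabolic enzymes 17.2% against 16.6%, with 22.8% among ES genes. Products of protein turnover, 4.46% of the genes against 4.09% of all, held 13.5% of the AFS reads beside 3.95% of the gene counts. The count share is uncertain here too: a ubiquitin-conjugating enzyme (CCM_01358) had a count of 640 beside 10249 AFS reads in passage 1. Chaperone and stress products, 2.44% against 2.11%, held 10.5% of the AFS reads beside 10.04% of the gene counts. Mitochondrial and respiratory products made up 6.59% of the ES genes, 2.38% of the AFS genes and 2.41% of the ALS genes, against 3.12% of all. Products with no named function made up 12.7% of the ALS genes against 5.48% of all. Transcription and chromatin products stood at 6.48% against 5.89%, vesicle traffic and cytoskeleton at 2.34% against 2.44%, and cell wall products at 1.70% against 1.74%.

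Splicing and RNA-binding genes carried 45 of the junctions in 26 genes, 27 of them listed in all 6 libraries. The PRP4-like processing factor (CCM_05913), a part of the spliceosome, had an ES junction with 1871, 2567, 1152, 1575, 1506 and 1548 reads in passages 1 to 6, 0.460-fold to 0.817-fold that of passage 1 as a share of junction reads, and no inclusion junction was listed. The U1 small nuclear ribonucleoprotein (CCM_01676), which recognises the 5′ splice site, had an ES junction with 142 reads in passage 1 and 223 to 257 in the others, 1.02-fold to 1.17-fold as a share of junction reads, also with no inclusion. SUB2 had an AFS junction besides its ES junction, with 69 reads in passage 1, 329, 224, 249 and 243 in passages 2 to 5 and 464 in passage 6. An mRNA binding post-transcriptional regulator (CCM_03581) carried 4 ALS junctions, and the most read of them had 287, 463, 707, 745, 515 and 832 reads, 0.961-fold to 1.84-fold as a share of junction reads. The polyadenylate-binding protein (CCM_04609), which coats the poly(A) tail, was highest in passage 1, with 1079 AFS reads against 562 to 785 in the others. Per 100 counts of the gene the difference was smaller, with 15.6 reads in passage 1 and 12.3 to 14.1 in the others. RNA-binding protein 8A (CCM_07688), a core protein of the exon junction complex, had 121, 171, 172, 94, 155 and 74 ALS reads. Reads and shares of junction reads in these genes also hold differences in the count of the whole gene.

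Signalling genes, read as kinases of any kind, phosphatases and G protein related products, carried 100 of the junctions in 69 genes, or 7.32% of the genes against 6.99% of all. The Rab GTPase ypt1 (CCM_02460), which acts in vesicle traffic, had 1998 AFS reads in passage 1 and 1931 to 3164 in the others, 0.703-fold to 0.943-fold as a share of junction reads. The G protein gamma subunit (CCM_01794) had 447 in passage 1 and 961 to 1414 in the others, 1.32-fold to 1.90-fold. The serine/threonine phosphatase PP-Z (CCM_05407) was highest in passage 1, with 348 AFS reads against 129 to 226. A Ras guanine nucleotide exchange factor (CCM_05772) had 145, 175, 179, 172, 211 and 126 ALS reads, and its share of junction reads was 0.534-fold to 0.974-fold that of passage 1. None of these signalling values is divided by the count of the gene, so they also hold differences of the whole gene. A pair of neighbouring genes named pyruvate/phosphoenolpyruvate kinase (CCM_07059 and CCM_07060) shared a junction. It was classed AFS for the former, with no listed reads in passage 1 and 108, 93, 140, 57 and 145 in passages 2 to 6, and was also assigned to the latter as ALS in passages 2 and 6 alone.

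The development word list held 2 genes with such junctions. These were the regulator flbA (CCM_07203) and a sporulation protein RMD1 (CCM_02402), whose single AFS junction had 13 reads in passage 4 alone. FlbA is a regulator of G protein signalling that in Aspergillus nidulans is needed for conidiation. With 10 AFS junctions flbA carried more than any other gene. None of the 10 was listed in passage 1 or passage 2. Their reads summed to 93, 298, 436 and 180 in passages 3 to 6. The estimated count of the gene was 1683, 2423, 2422, 4798, 5426 and 3122 in passages 1 to 6, so passages 2 and 3 had almost the same gene count but 0 and 7 listed junctions. The 10 junctions spanned 4344 to 6394 bases, and 9 of them started at the same base and ended at different bases inside the gene. The most read had 13, 98, 117 and 39 reads in passages 3 to 6, and the next 20, 84, 87 and 38. In passage 1, a count of 4 reads on any of them would not have been listed.

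Other genes with many such junctions did not share that pattern. The GPI-anchored cell wall protein Ecm33 (CCM_03709) had 8 AFS junctions with 2133 to 2880 reads in sum in every library. The regulator Medusa (CCM_01634), named after a developmental regulator of Aspergillus nidulans but not in the development word list, had 5 with 281, 284, 137, 191, 115 and 218 reads. The 5 AFS junctions of a glia maturation factor beta product (CCM_07701), a family that acts on the actin cytoskeleton, had 94 reads in passage 1 and 9, 0, 5, 0 and 26 in passages 2 to 6, where the gene count was 7554 in passage 1 and 1177 to 3527 in the others. A lysophospholipase (CCM_02898) had 308 reads in passage 1 and 54 to 104 in the others. These genes were chosen after their values were seen.

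Junctions that reach beyond the gene can join neighbours. In 13 cases the same pair of ends was assigned to 2 genes, each time as AFS for the one and ALS for the other. In 6 of the 13 the genes had consecutive locus tags, and 8 spanned over 10 kb. The most read joined CCM_01694, a C6 transcription factor, and CCM_01695, an aminopeptidase, with 217, 247, 185, 171, 196 and 145 reads in passages 1 to 6. A junction of 140436 bases between a cation-transporting ATPase (CCM_05261) and a cytochrome oxidase c assembly protein (CCM_05315) was listed in all libraries with 54 to 126 reads. These genes are not neighbours but lie 54 locus tags apart, and Known junctions spanned at most 2211 bases. Whether such long junctions come from a single transcript was not tested. A further junction, between alcohol dehydrogenase 1 (CCM_02484) and a heavy metal-associated domain protein (CCM_02485), had 243 reads in passage 2 and was listed in no other library. No source used here gives whether the libraries kept the strand, so overlapping and antisense transcripts cannot be told apart at such ends.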

How the data were processed

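Poly(A) RNA from mycelium of 6 subculture passages was measured, 1 library each. Per the file headers, the authors deposited junction counts (reads per splice junction, not normalised) in 5 tables, each setting a later passage beside passage 1, and estimated counts and FPKM per gene in a further table. Their structure table gives starts, ends and UTR extensions in bases. The tools named in the submitters' processing notes are TopHat2, Bowtie, Cufflinks, FastQC and edgeR. Their roles and versions, the genome build and any strand setting were not given in the sources used here, and no edgeR result was used. The product names come from the deposited tables.

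Junctions were joined over the tables by gene and ends. The passage 1 columns were used once, and 0 values differed between tables. Of all entries, 68 carried more than 1 class word, none of them ES, AFS or ALS. A further 68 per-sample columns were not used. Junction reads were 5694387 to 9563636 per library. Shares have Wilson 95% intervals and ratios of shares conditional binomial ones, both for counting error only. Folds used junctions with a mean of at least 10 reads, with 4 reads where unlisted, and skipping shares used at least 20 reads of skipping plus inclusion. Estimated counts were used as deposited, without rounding.

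The members and lists were chosen with earlier results of these data known. Named junctions are the 12 most read of each class, the 8 ES junctions with the highest skipping shares, and junctions with at least 10 reads in genes of the splicing, signalling or development word lists, from which examples are given. Genes were grouped by words in their product names, so a gene can be in several groups. The share and fold calculations were tested on simulated data. Python 3.11.15, pandas 2.3.3, NumPy 2.4.6, SciPy 1.17.1 and matplotlib 3.10.9 were used.

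Alternatives covered the denominator of the class shares, read minimums, the most read junction of each class, the table of the passage 1 columns, the form of the inclusion count, and leaving out passage 1. No sequences were read, because no genome was used here.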

Additional observations from a re-analysis of the deposited data

How the results depend on the processing

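No paired analysis was possible because each passage has 1 library and no result comes from a test. Divided by summed gene counts in place of junction reads, the ES share ran from 0.634% to 0.703%, AFS from 2.12% to 2.75% and ALS from 0.217% to 0.370%. The ES ratio to passage 1 then turned from below 1 to above it, at 1.07, 1.08, 1.11, 1.11 and 1.06 in passages 2 to 6, while AFS ran from 1.23 to 1.30 and ALS from 1.40 to 1.70. The cause was not tested. Without the most read junction of each class, the ES share ran from 0.817% to 0.982%, AFS from 3.39% to 3.60% and ALS from 0.328% to 0.482%. The ratios to passage 1 were then 0.832 to 0.882 for ES, 1.03 to 1.06 for AFS and at most 1.47 for ALS, each in the direction found with all junctions.

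The number of ES, AFS and ALS junctions at least 2-fold higher than passage 1 was 58, 93, 87, 83 and 81 in passages 2 to 6 at a mean of at least 30 reads, where fewer junctions were compared. The share of all junctions at that minimum is not given here, so these counts do not show whether an excess over all junctions remains. Per gene count it was 69, 92, 89 and 78 in passages 2 to 5, and 37, 76, 59, 53 and 65 were lower in passages 2 to 6. At a mean of at least 3 reads, 171 were lower in passage 6, where more junctions were compared, again without the share of all junctions at that minimum.

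Skipping shares and the counts of junctions by class and in all libraries moved by less than 1.5 times under the alternatives run for them. Of these, a minimum of 3 reads, which is also the sole alternative for the counts by function, and the passage 1 columns of the last table could change nothing, since the smallest listed count is 5 and passage 1 values do not differ between tables; they say nothing about stability. The alternatives with Known inclusion junctions alone, without passage 1 for skipping shares and counts, and with spans of at most 1000 bases were chosen after the data were seen. The listing floor of 5 reads limits all statements on absence, most of all in the shallow passage 1 library.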
